A study of Mus musculus with 6 samples.

Results

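The miR-322, miR-503 and miR-351 cluster was read by 4 array reporters, mmu-miR-322, mmu-miR-322*, mmu-miR-503 and mmu-miR-351, out of 1078 mouse miRNA reporters on each array. The members were taken by exact reporter name, and all 4 names were found on every array. Names are given hereafter without the mouse prefix mmu. The cells were passaged cultures of vascular smooth muscle, the contractile tissue of arteries, taken from the abdominal aorta of 8-week-old C57BL/6 mice. TNF-α cultures (n = 3) received this inflammatory cytokine, at a dose and for a time not given in the sources used here, and control cultures (n = 3) were left untreated. Each culture was hybridised to 1 single-colour array, and the question was which miRNAs differ between treated and untreated cells. In such bulk RNA, fewer cells of a type and less RNA per cell cannot be told apart.

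A miRNA is cut from a hairpin precursor, and either arm of the hairpin can enter the silencing complex. In the older naming used on these arrays, an asterisk marks the arm then thought to be the minor product. The mature strand pairs with its target mRNAs mainly through its seed, bases 2 to 8. In mouse myoblasts, miR-322 and miR-503 are known for slowing the cell cycle, through targets that include the phosphatase CDC25A, as muscle cells differentiate. Human cells carry the orthologous pair miR-424 and miR-503, and miR-351 is known from rodents.

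In the RefSeq annotation of build GRCm38.p6, the cluster holds 7 hairpins on the minus strand of chromosome X (chrX:53047997-53054349), a span of 6353 bases. In the direction of that strand the order is Mir322, Mir503, Mir351, Mir542, Mir450-2, Mir450-1 and Mir450b. Mir322 (chrX:53054255-53054349), Mir503 (chrX:53053984-53054054) and Mir351 (chrX:53053255-53053353) lie inside the long noncoding RNA gene C430049B03Rik (chrX:53053112-53057190). The gap is 200 bases between Mir322 and Mir503, 630 bases between Mir503 and Mir351, and 3767 bases between Mir351 and Mir542, which lies outside that gene. Besides the 4 members, 9 further reporters read arms of these hairpins.

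The mature sequences of the 4 members, from RefSeq on build GRCm38.p6, are shown 5′ to 3′ with the seed in capitals, because the seeds set the members apart.
miR-322: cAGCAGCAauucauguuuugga
miR-322*: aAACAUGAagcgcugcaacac
miR-503: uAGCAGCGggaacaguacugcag
miR-351: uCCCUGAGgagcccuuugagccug
miR-322 and miR-503 are alike at 6 of the 7 seed positions and at 11 of 22 positions in all, aligned at their 5′ ends without gaps. miR-351 shares 2 seed positions with miR-322 and 3 with miR-503. The 4 members thus carry 3 unlike seeds and a near copy of the first, and no other mature entry in the RefSeq table has the seed of miR-322* or of miR-503.

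The 95-base Mir322 hairpin is printed with both arms in capitals, the first being miR-322 and the second miR-322*, since these 2 arms of 1 precursor were read separately.
Mir322: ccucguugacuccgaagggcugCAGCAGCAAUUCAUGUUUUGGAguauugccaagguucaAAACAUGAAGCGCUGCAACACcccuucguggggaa

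The seed of miR-322 is also carried by the miR-15 and miR-16 family, known for restraining the cell cycle, and that of miR-351 by the miR-125 family, the mammalian relatives of worm lin-4. These relatives are shown to let the shared seed be read, with the seed again in capitals.
miR-15a: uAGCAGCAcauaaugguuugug
miR-15b: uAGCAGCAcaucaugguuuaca
miR-16: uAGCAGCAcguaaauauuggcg
miR-195: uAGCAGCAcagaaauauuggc
miR-497: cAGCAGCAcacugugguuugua
miR-125a-5p: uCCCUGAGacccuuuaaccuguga
miR-125b-5p: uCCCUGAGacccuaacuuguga
Outside the seed the relatives part from the members. miR-322 has the same base as miR-15b at 16 of 22 positions and as miR-16 at 12 of 22, while miR-351 has the same base as miR-125b-5p at 10 of 22.

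The arrays themselves differed between the groups. The background peak, the commonest density of an array, was 81.7 to 91.1 on TNF-α arrays and 65.7 to 77.1 on control arrays. A background limit was set on each array at the peak plus 3 SD of the values below it, which came to 117 to 127 on TNF-α arrays and 87.6 to 105 on control arrays. Reporters above the limit numbered 231 to 255 on TNF-α arrays and 287 to 337 on control arrays. An effect of TNF-α on dim reporters and this gap between the sets of arrays cannot be told apart. The smooth muscle markers miR-143 and miR-145 exceeded the limit on all 6 arrays, while their minor arms miR-143* and miR-145* did so on 0 and 1. Of the markers of other cells, the endothelial miR-126-3p exceeded it on 2 TNF-α and 3 control arrays. Its densities were 134 ± 15.2 with TNF-α and 137 ± 19.3 in controls (SD, n = 3 each). The other endothelial marker, miR-126-5p, exceeded the limit on no array, at 83.2 ± 7.17 with TNF-α and 65.0 ± 2.61 in controls. The 5 epithelial, 2 neural and 1 liver markers exceeded it on no array, nor did the 3 striated muscle markers, miR-208a-3p, miR-208b and miR-499. Of the 5 blood cell markers only miR-150 did, on 2 control arrays. Among these dim markers, miR-145* (-0.51 ± 0.08, limma adjusted p = 0.00496) and the liver marker miR-122 (-0.26 ± 0.06, adjusted p = 0.0225) passed as lower with TNF-α, like the miR-322 arms described next, and their part in those results was not tested. Not all muscle miRNAs were dim. On the muscle differentiation list described below, the skeletal muscle miR-206 exceeded the limit on 3 TNF-α and 3 control arrays. miR-133b exceeded it on 2 control arrays and miR-133a on 1.

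The 2 arms of the miR-322 hairpin were lower with TNF-α and miR-351 was higher, while the change of miR-503 did not pass the test. The changes were small, and 3 of the 4 members lay below the background limit on every TNF-α array. miR-322* fell most, and of the 4 it alone kept its call under every alternative in which it was tested. Of the 4 members, 1 rose and 2 fell at an adjusted p below 0.05 in limma, which 22.7% of all 642 tested reporters did, 12.9% as higher and 9.81% as lower. Among tested reporters above the limit on at least 3 arrays the share was 31.6%, and among the others 15.5%. The median change of the 4 members was -0.03 on the log2 scale, against 0.01 over all tested reporters. After normalization the groups did not overlap for any of the 4 members, 2 of them higher and 2 lower with TNF-α. The same held for 40.0% of all tested reporters, 20.4% higher and 19.6% lower. Of the 2 higher members, miR-503 lay below the limit on every array. It reached the minimum density for testing on the TNF-α arrays alone, which favoured a higher value with TNF-α.

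**Figure D1:**
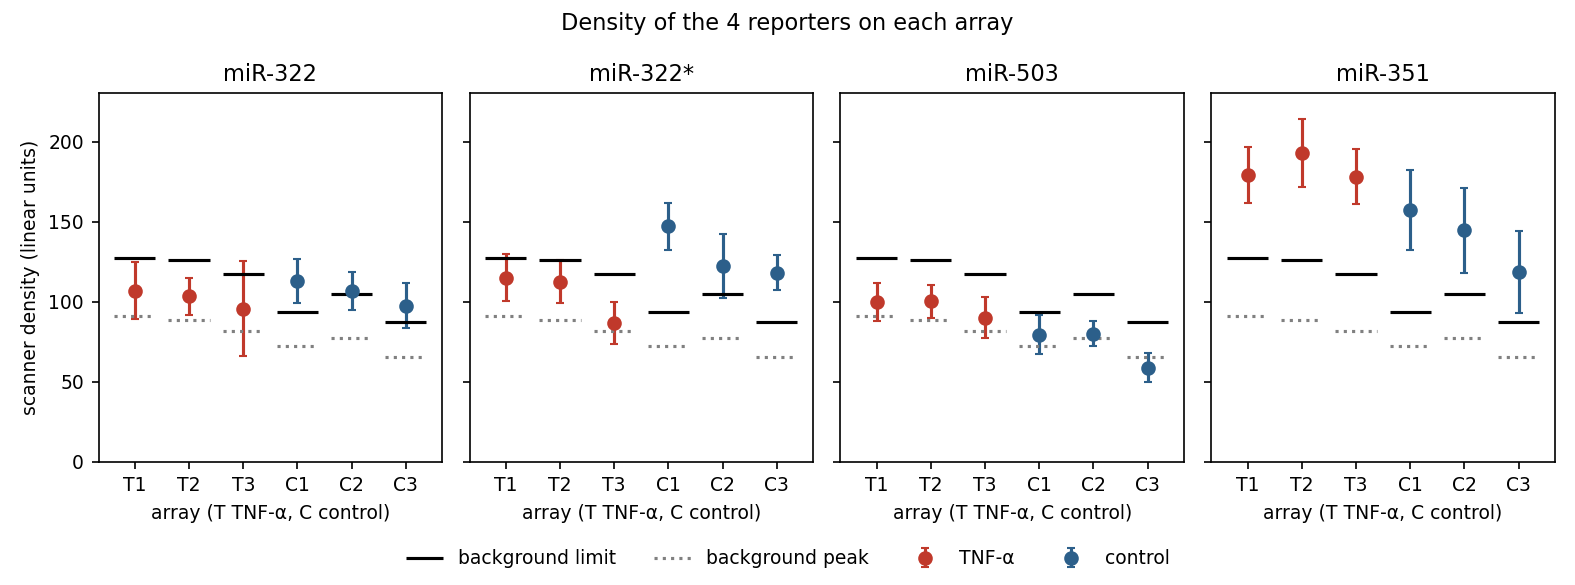
Scanner density (linear units) of miR-322, miR-322*, miR-503 and miR-351 on the 3 TNF-α arrays (T1 to T3) and the 3 control arrays (C1 to C3), with bars for the deposited standard deviation of each density, solid lines for each array's background limit and dotted lines for its background peak. miR-351 lies above the limit on all 6 arrays, both miR-322 arms lie above it on the control arrays and below it on the TNF-α arrays, and miR-503 lies below it throughout.

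miR-322 had densities of 107, 103 and 95.6 on the TNF-α arrays, against 113, 107 and 97.4 on the control arrays. The groups overlapped on this raw scale, on which the TNF-α arrays have the higher background. Above each array's background peak, miR-322 stood at 15.8, 14.7 and 13.9 with TNF-α, against 40.4, 29.5 and 31.7 in controls. On that scale every TNF-α value lay below every control value, as it did for 22.7% of all 1078 reporters. It exceeded the limit on 0 TNF-α arrays and on all 3 control arrays, on control replicate 2 only just, at 1.02 times the limit.

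After correction and normalization miR-322 changed by -0.25 ± 0.07 on the log2 scale (SE, n = 3 per group, 95% interval -0.40 to -0.09, limma adjusted p = 0.0355). The scale has an offset of 50, which understates changes of dim reporters, and no fold is given, because the TNF-α values lay below the limit and the control mean did not exceed the lowest signals above the limit on the TNF-α arrays. The call was lost without normalization (-0.089, where the median of all tested reporters was 0.14), with scaling to the median (-0.14), and without any 1 of the 6 arrays (-0.27 to -0.21).

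miR-322*, cut from the other arm of the same precursor, had densities of 115.0, 113 and 86.7 on the TNF-α arrays, against 147, 122 and 118 on the control arrays. Here the groups did not overlap even on the raw scale, on which 4.36% of all reporters were lower on every TNF-α array. Above the background peak the reporter stood at 17.6 ± 10.9 with TNF-α and at 57.5 ± 15.4 in controls (SD, n = 3 each). TNF-α replicate 3 was the lowest, at 5.02 above its peak, and control replicate 1 the highest, at 74.8. No TNF-α array and all 3 control arrays exceeded the limit, at 0.739 to 0.904 times the limit with TNF-α and at 1.17 to 1.57 times in controls.

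The fitted change of miR-322* was -0.47 ± 0.10 (SE, n = 3 per group, 95% interval -0.69 to -0.25, limma adjusted p = 0.0125). With its TNF-α values set to the lowest signals above the limit on those arrays, miR-322* was 1.13-fold lower with TNF-α on the offset scale. This value compares group means, has no interval and rests on the higher limits of the TNF-α arrays. Under 20 alternatives miR-322* kept its direction and its call, with values of -0.77 to -0.28 and adjusted p of 0.000133 to 0.0497. The lowest of these p came with the background peak subtracted and no normalization, an alternative chosen after seeing the data. There every named reporter had the same SE, 0.15. The next lowest was 0.00197, with the authors' processed table. The highest of these p came without control replicate 1 (-0.39). In the authors' processed table miR-322* had intensities of 28.2, 28.9 and 13.6 with TNF-α, against 78.1, 52.1 and 56.1 in controls. These intensities lie further below the densities on the TNF-α arrays, most often by 83.65, than on the control arrays, most often by 69.11. That widens the gap between the groups.

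miR-503 had densities of 100.02, 100.2 and 90.1 on the TNF-α arrays, against 79.4, 80.0 and 58.9 on the control arrays. The groups did not overlap, but 38.2% of all 1078 reporters were likewise higher on every TNF-α array on this raw scale. Above the background peak miR-503 stood at 9.64 ± 1.69 with TNF-α and at 1.04 ± 7.13 in controls (SD, n = 3 each), and it exceeded the limit on 0 of 6 arrays. It reached the minimum density for testing on the 3 TNF-α arrays and on 0 control arrays, so its place among the tested reporters already required a higher value with TNF-α.

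The fitted change of miR-503 was 0.19 ± 0.09 (SE, n = 3 per group, 95% interval -0.02 to 0.41, limma adjusted p = 0.179) and did not pass. Without normalization (0.38) and with scaling to the median (0.33) it passed as higher, and without control replicate 3, its dimmest array, the change was 0.090 (adjusted p = 0.439). No fold is given, because both groups lay below the limit. Whether miR-503 was present in these cells was not detectable at this signal.

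miR-351 was the member clear of background on every array. Its densities were 179, 193 and 178 on the TNF-α arrays, against 157, 145 and 119 on the control arrays, so that the groups did not overlap. Above the background peak it stood at 88.3, 104 and 96.4 with TNF-α, against 85.0, 67.6 and 52.8 in controls. The groups still did not overlap, although TNF-α replicate 1 and control replicate 1 came within a few units of each other, and 11.0% of all reporters were higher on every TNF-α array on that scale. The SD of these values was 7.84 over the TNF-α cultures and 16.1 over the control cultures. Divided by each array's limit, miR-351 stood at 1.41, 1.53 and 1.52 with TNF-α, against 1.68, 1.38 and 1.35 in controls. On this scale the groups overlapped, and control replicate 1 had the highest value.

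miR-351 rose 1.25-fold on the offset scale (log2 0.32 ± 0.09, SE, n = 3 per group, 95% interval 0.11 to 0.53, limma adjusted p = 0.0412). Its direction held under all 20 alternatives, at 0.21 to 0.44, and its call under 11 of them. Among the alternatives that lost the call were those without control replicates 2 (0.31) or 3 (0.26), without TNF-α replicates 2 (0.31) or 3 (0.27), and the fit with the replicate number as a block (0.32, adjusted p = 0.0981).

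The changes of the members were also set against each other within each array, which asks whether neighbours of 1 cluster changed alike. The log2 difference of miR-322* minus miR-351 was -0.90 ± 0.24 on TNF-α arrays and -0.11 ± 0.10 on control arrays (SD, n = 3 each), a shift of -0.79. The shift was -0.66 for miR-322* minus miR-503, -0.57 for miR-322 minus miR-351 and -0.44 for miR-322 minus miR-503. The shifts against miR-503 rest on a reporter below the limit on every array, which reached the minimum for testing through the TNF-α arrays alone, and are given as a description. For these 4 pairs and for the 2 arms of Mir322 (miR-322 minus miR-322*, 0.23), TNF-α and control values did not overlap. For the 4 pairs this was fixed beforehand. After normalization each miR-322 arm was lower, and miR-503 and miR-351 were higher, on every TNF-α array than on any control array. The non-overlap and the p of those 4 pairs thus add nothing to the separation of the single members. Each of the 5 pairs had p = 0.1 in a two-sided exact permutation test, the smallest that 3 arrays against 3 allow. Each was 0.12 after adjustment over the 6 pairs. None could therefore pass a threshold of 0.05. The shift between the 2 arms of Mir322 was 0.13 without TNF-α replicate 3 (exact permutation p = 0.2), and without control replicates 1 or 3 its p was 0.3.

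For miR-503 minus miR-351 the within-array difference was -1.01 ± 0.11 with TNF-α and -0.88 ± 0.09 in controls (SD, n = 3 each). The values overlapped (shift -0.13, exact permutation p = 0.3), and without normalization the shift was 0.0073. A difference between these 2 members was not shown, which does not show that they changed alike.

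**Figure D2:**
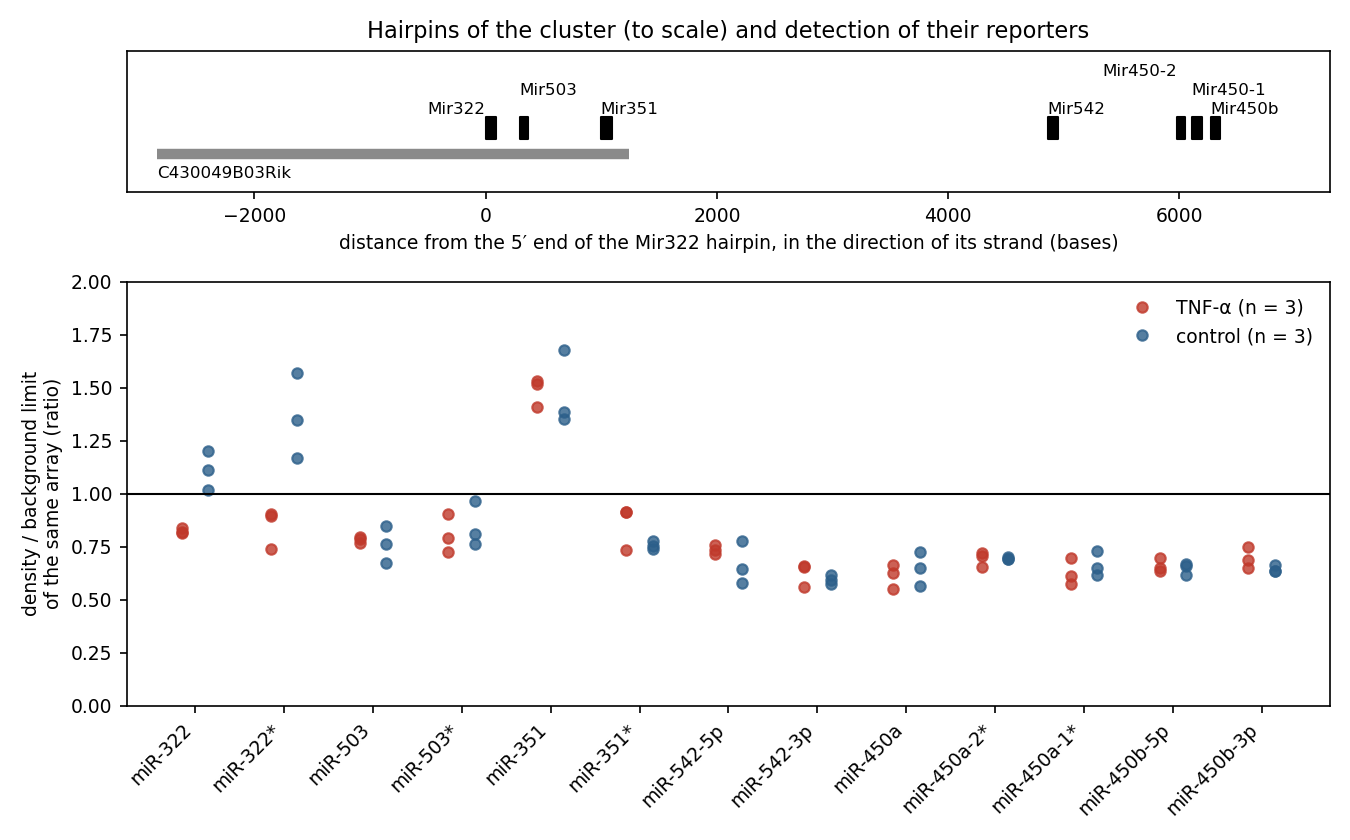
The upper panel maps the 7 hairpins and the gene C430049B03Rik to scale, in bases from the 5′ end of Mir322 in the direction of its strand. The lower panel gives the density of each of the 13 reporters divided by the background limit of the same array, for 3 TNF-α and 3 control arrays. The line at 1 marks the limit, which miR-351 exceeds on all 6 arrays, miR-322 and miR-322* on the control arrays and the other 10 reporters on none.

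The 9 further reporters of the cluster exceeded the limit on 0 of 6 arrays, at 0.549 to 0.967 times the limit. The 3′ arms of Mir503 and Mir351 and the 5′ arm of Mir542 were the 3 that reached the minimum for testing. In limma 0 of them passed, and miR-351* and miR-542-5p had an unadjusted p below 0.05. miR-351* had densities of 93.6, 115 and 107 on the TNF-α arrays, against 69.2, 79.0 and 68.1 on the control arrays, and changed by 0.32 ± 0.11 (SE, n = 3 per group, limma adjusted p = 0.0678). The estimates for the 2 arms of Mir351 thus had the same sign and size, but miR-351* and miR-542-5p (0.32 ± 0.12, adjusted p = 0.0782) reached the minimum for testing on the TNF-α arrays only. Both passed as higher without normalization (0.51 for miR-351* and 0.49 for miR-542-5p), with scaling to the median (0.45 and 0.43) and with a trended variance. miR-351* also passed with cyclic loess (0.31). miR-542-5p also passed without control replicate 1 (0.44), and its change was 0.20 without control replicate 3. miR-503* changed by 0.08 ± 0.11 (adjusted p = 0.633), and its groups overlapped after normalization.

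The mature sequences of these 3 testable neighbours share no seed with a member.
miR-503*: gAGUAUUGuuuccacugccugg
miR-351*: gGUCAAGAggcgccugggaac
miR-542-5p: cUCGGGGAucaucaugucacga
The remaining 6 reporters were miR-542-3p and the 5 arms of the miR-450 hairpins, and none was tested. Their densities ran from 64.5 to 94.1 on the TNF-α arrays and from 52.0 to 73.6 on the control arrays. On the raw scale 7 of the 9 neighbours were higher on every TNF-α array, against 38.2% of all reporters, and above the background peak 2 of the 9 were, against 11.0%. The mature strands of miR-450a-1* and miR-450b-3p differ at 2 of 22 positions, so that signal on either reporter need not come from its own strand.

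**Figure D3:**
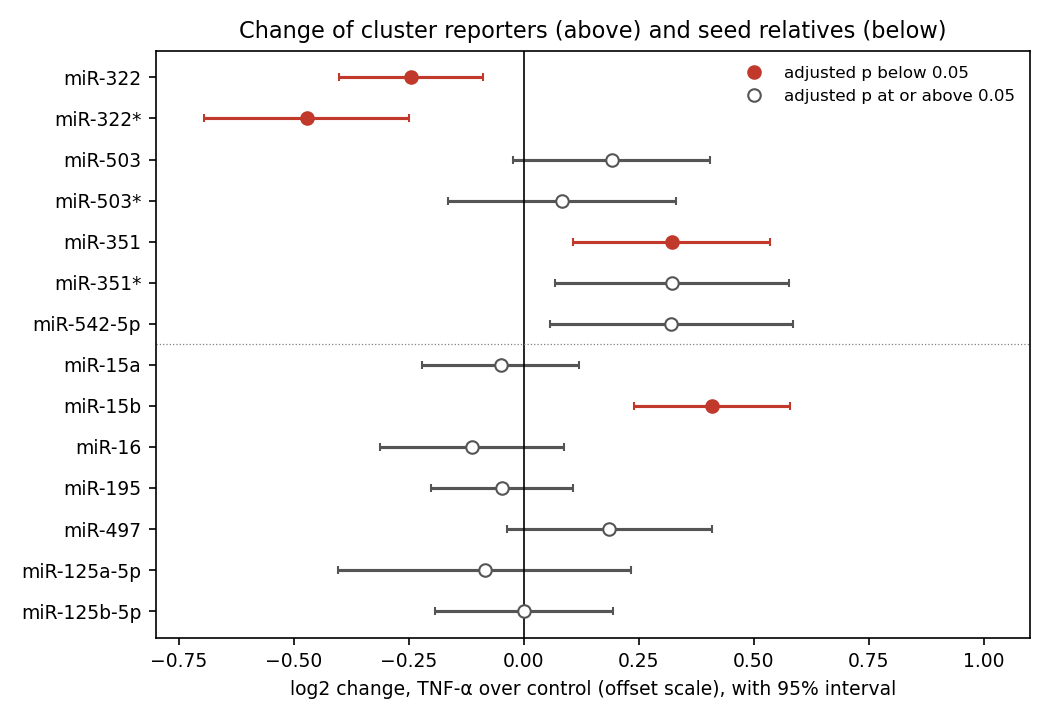
Log2 change with TNF-α over control, with its 95% interval from limma, for the 7 tested reporters of the cluster (above the dotted line) and 7 reporters that share a seed with miR-322 or miR-351 (below it). Filled points passed an adjusted p of 0.05. miR-322 and miR-322* lie below 0, and miR-351 and miR-15b above it.

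The other reporters with the seed of miR-322 were called at about the share of all reporters. Of 5 such relatives on the arrays with a matched RefSeq sequence, all were tested and 4 lay above the limit on all 6 arrays. Of the 5, 1 rose, 0 fell and 4 did not pass, with a median change of -0.05. Among all tested reporters 22.7% were called and 9.81% were called as lower. Among those above the limit on at least 3 arrays 31.6% were called. At an unadjusted p below 0.05 the count was likewise 1, and that relative was higher. The one that rose was miR-15b, at densities of 852, 995 and 817 with TNF-α against 718, 902 and 744 in controls (0.41 ± 0.07, limma adjusted p = 0.00819). The raw densities of miR-15b overlapped between the groups, and its call was lost without normalization (0.17), with scaling to the median (0.12) and in the processed table (0.11). miR-16 had densities of 4084, 4423 and 3884 with TNF-α, against 4948, 4936 and 4539 in controls, so that the groups did not overlap on the raw scale. After quantile normalization they overlapped, and the change was -0.11 ± 0.09 (95% interval -0.31 to 0.09, adjusted p = 0.401). miR-16 passed as lower with scaling to the median (-0.28, adjusted p = 0.0304) and in the processed table (-0.28, adjusted p = 0.0263), and over its 20 alternatives the change ran from -0.28 to -0.030. The mature strands of miR-195 and the brighter miR-16 differ at 2 of 21 positions, so that signal on the miR-195 reporter need not come from its own strand. For miR-195 the change was -0.05 ± 0.07 (95% interval -0.20 to 0.11). miR-15a (-0.05 ± 0.07) and miR-497 (0.19 ± 0.10) did not pass either. miR-497 exceeded the limit on 0 arrays. It passed as higher without normalization (0.36) and with scaling to the median (0.31), and its change was 0.0998 without TNF-α replicate 1. A further reporter listed with this family, miR-1907, had no matched RefSeq sequence and is not counted among the 5. It exceeded the limit on 3 TNF-α and 3 control arrays and did not pass (-0.04 ± 0.06, limma adjusted p = 0.694).

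The 2 relatives of miR-351 did not pass in limma, and neither did at an unadjusted p below 0.05. miR-125b-5p had densities of 28501, 30045 and 28201 on the TNF-α arrays, against 23781, 27723 and 27099 on the control arrays. Its fitted change was 0.00 ± 0.08, with a 95% interval of -0.19 to 0.19, on a quantile-normalized scale where the brightest reporters can only exchange ranks. miR-125a-5p changed by -0.09 ± 0.14 (95% interval -0.40 to 0.23, limma adjusted p = 0.697). The difference between miR-351 and these relatives, or between miR-322 and its own, was not tested.

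Other miRNAs known for roles in muscle differentiation or the cell cycle were called at about the share of all tested reporters, 22.7%. The share was 31.6% among tested reporters above the limit on at least 3 arrays. Of 16 reporters on the muscle differentiation list, 11 were tested, 2 rose, 1 fell and 8 did not pass (median change -0.03). miR-29b (0.60 ± 0.08, limma adjusted p = 0.00227), which represses collagen mRNAs, and miR-181a (0.39 ± 0.08, adjusted p = 0.0115) rose. miR-206 (-0.49 ± 0.07, adjusted p = 0.00339), a miRNA of skeletal muscle, fell. Of 22 reporters on the cell cycle list, 19 were tested, 3 rose, 1 fell and 15 did not pass (median change 0.03). miR-34a (0.55 ± 0.07, adjusted p = 0.00227), a transcriptional target of p53, miR-25 (0.39 ± 0.08, adjusted p = 0.0115) and miR-15b rose, and miR-98 (-0.37 ± 0.11, adjusted p = 0.0459), of the let-7 family, fell. Without normalization the calls of miR-34a (0.26), miR-25 (0.23) and miR-181a (0.24) were lost. They were also lost with scaling to the median, where the changes of miR-34a, miR-25 and miR-181a were 0.20, 0.17 and 0.19, and in the processed table, where they were 0.23, 0.25 and 0.20. The call of miR-181a was also lost without control replicate 2 (0.38), and that of miR-98 without any 1 of the arrays except TNF-α replicate 3 (-0.41 to -0.27). miR-98 also lost its call with cyclic loess (-0.30), an offset of 8 (-0.45), no filter (-0.37), the replicate block (-0.37) and the processed table with no filter (-0.50). miR-206 and miR-29b kept their calls under every alternative that tested them.

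The reporters whose pattern over the 6 arrays was most like a member's were found by the root mean square difference of log2 values, each reporter's own mean taken off, among 287 others above the limit on at least 3 arrays. For miR-322, whose own values spread by 0.13 around their mean, they were miR-101a (0.04), miR-1956 (0.04) and miR-466h-3p (0.05). For miR-322*, with a spread of 0.26, they were miR-700 (0.08), miR-3110* (0.08) and miR-206 (0.08). For miR-351, with a spread of 0.19, they were miR-483* (0.06), miR-484 (0.06) and miR-466f-5p (0.07). miR-503 was not matched, and it and the 9 further cluster reporters could not appear among the matches, because they lay below the limit on every array.

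**Figure D4:**
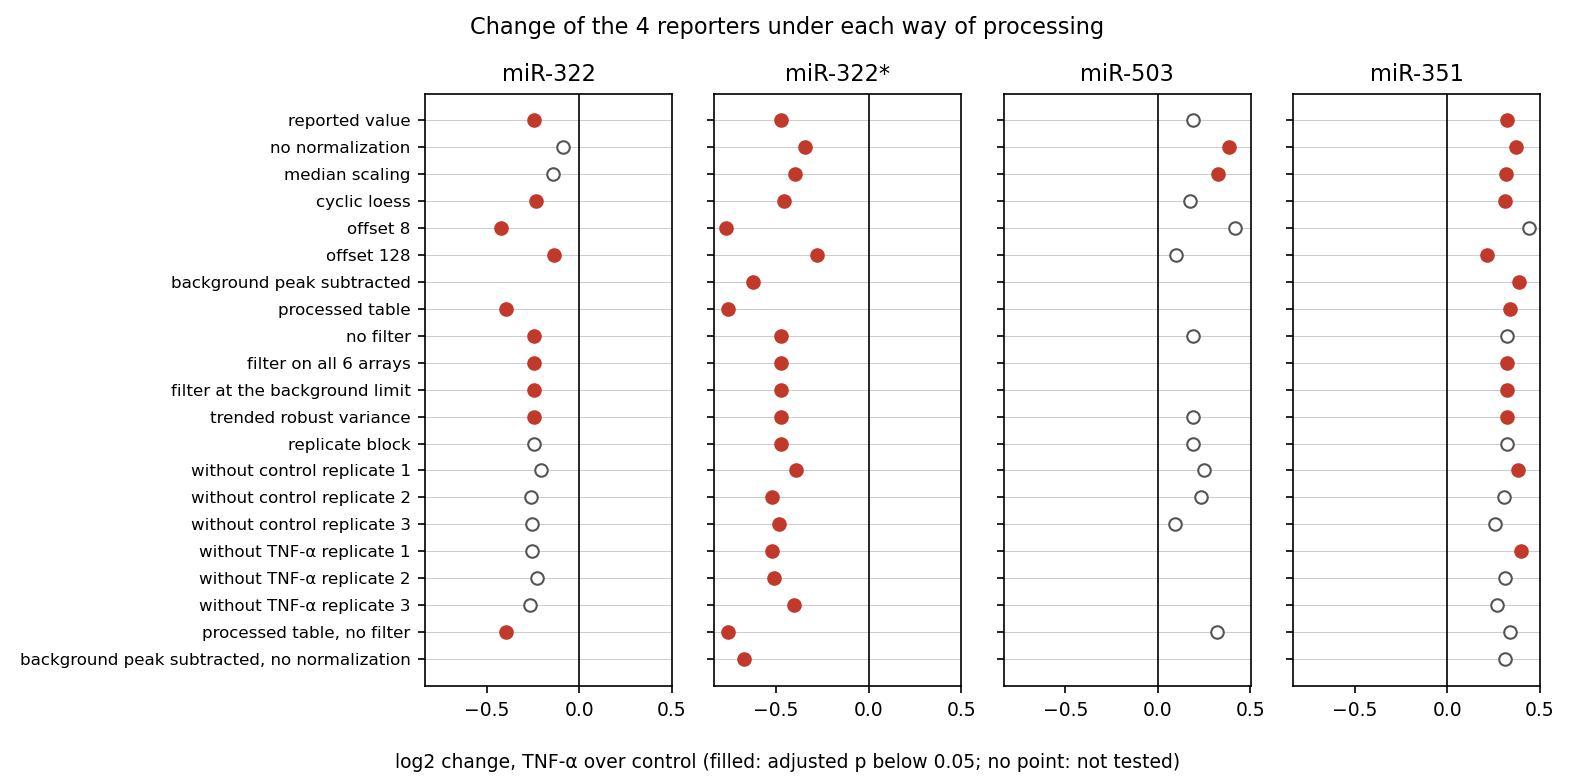
Log2 change with TNF-α over control of the 4 members under the reported processing and each alternative, with filled points for an adjusted p below 0.05 and no point where a reporter was not tested. miR-322* is filled in every row, from -0.77 to -0.28, and miR-351 stays between 0.21 and 0.44 and is filled in 11 of 20 alternatives. miR-322 is filled in 9 of 18. It loses the call without normalization, with median scaling, with the replicate block and without each single array. miR-503 is filled in 2 of 12, without normalization and with median scaling.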

How the data were processed

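Per the file headers the authors deposited, for each array, 1 median density and 1 standard deviation per reporter, intensities on a linear scale. Their values hold the background. Per the labels, total RNA was poly(A)-tailed and tagged for Cy5. No scanner, software or probe sequence was given in the sources used here. The deposited processed intensities, with column medians of 8.39 to 12.0 and a minimum of 0.01, were an alternative, since their background subtraction and scaling are not stated. Density minus processed intensity was most often 83.65 on each TNF-α array and 69.11 on each control array. 0 of their columns lacked a sample.

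Densities were corrected with normexp, an offset of 50 was added, and log2 values were quantile normalized in limma 3.58.1 under R 4.3.3. Reporters with a corrected density of at least 32 on 3 arrays were tested with limma's moderated two-sided test on group, with Benjamini-Hochberg adjustment over all of them and a threshold of 0.05. The number of arrays limits the precision. The cultures were independently grown, per the labels. The procedure was tested on simulated data, in which only reporters brighter than miR-322, miR-322* and miR-503 were given a change. That test therefore says nothing about calls at the signal of these dim members.

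The members, lists and tests were chosen with earlier results of these data known. The named reporters are the 4 members, the cluster's other reporters, seed relatives, the 3 nearest patterns per member, and called reporters of the muscle and cell cycle lists. Reporter names were matched by hand to RefSeq names (miR-322* to miR-322-3p, for example). Of 9 RefSeq relatives of the miR-322 seed 4, and of 4 of the miR-351 seed 2, had no reporter of that name here. Alternatives were 3 other scalings, offsets of 8 and 128, another background correction, other filters, the processed table, another variance model, a replicate block and each array left out.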

Additional observations from a re-analysis of the deposited data

How the results depend on the processing

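For the 4 members every alternative that gave a value kept the direction. miR-322* kept its call in 20 of 20. miR-322 did so in 9 of 18 and fell short without normalization (-0.089), with median scaling (-0.14), with the replicate block (-0.25) and without each array (-0.27 to -0.21). miR-351 fell short with an offset of 8 (0.44), with no filter (0.32), with the replicate block (0.32), without 4 of the 6 single arrays (0.26 to 0.31, in a range of 0.26 to 0.40 over all 6), and, in alternatives chosen after seeing the data, in the processed table with no filter (0.34) and with the background peak subtracted and no normalization (0.31). miR-503 passed without normalization (0.38) and with median scaling (0.33). The causes were not tested. Neither miR-322 nor miR-503 reached the filter after peak subtraction.

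The number of changed miRNAs was 146 (83 higher, 63 lower), 70 to 91 without each array, and 81 with the background peak subtracted and no normalization. The split was 163 higher and 41 lower without normalization, 126 and 60 with median scaling, and 39 and 81 in the processed table, where the median change was -0.12. Turned signs were miR-125a-5p without control replicate 3 (0.026, from -0.27 over the arrays left out), miR-15a without TNF-α replicate 1 (0.0045, from -0.078), and miR-503 minus miR-351 without normalization (0.0073).

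The replicate numbers were not taken as pairs. The labels give 2 TNF-α cultures the same number, so replicates were numbered here in the order listed. In their deviations from the group means, same-numbered arrays correlated at 0.04, 0.02 and 0.15, the last being the highest of all. The other combinations ran from -0.13 to 0.099. These values cannot exclude a pairing. With the block, 103 miRNAs were called. No slide block was fitted, since the files used here name no slide.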
